A study of Mus musculus with 6 samples.

Results

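The 9 genes described here encode receptors that direct lymphocytes to and within organs: the chemokine receptors Ccr4, Ccr6, Ccr7, Ccr8, Ccr9, Cxcr3, Cxcr4 and Cxcr5, and S1pr1, a receptor for sphingosine 1-phosphate. They were chosen by name, as 9 of the 21951 protein-coding genes of the GENCODE annotation, and each was described by the H3K4me3 peaks that lay within 2500 bp of any of its annotated transcription start sites (TSSs). H3K4me3 is a histone modification found at the promoters of active or poised genes, and it was measured by ChIP-seq in 2 mouse cell lines. Scid.adh.2C2 is a T cell progenitor cell line derived from a pro-T tumor of CB17-Prkdc<scid> mice, and the pro-B line is an established B-cell progenitor cell line transformed with the Abelson virus. The study's paper calls the latter pro-B in its results and pre-B in its methods, and pro-B is used here as a name only. For each line 2 H3K4me3 ChIP libraries and 1 input library were made, and the labels give no treatment. Each group is 1 transformed line and not a set of animals. A difference between the T and B lineages cannot be told apart from one between these 2 lines, their origin and their transformation.

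Chemokine receptors and S1pr1 couple to inhibitory G proteins and turn a gradient of a secreted ligand into directed movement. Progenitors are held in the bone marrow by Cxcr4 and its ligand Cxcl12, thymic progenitors follow the ligands of Ccr7 and Ccr9, and mature lymphocytes leave the thymus and lymph nodes through S1pr1. Ccr4, Ccr6, Ccr8, Cxcr3 and Cxcr5 are best known from mature or activated cells, which they guide to skin, mucosa, inflamed tissue and B-cell follicles.

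Promoter sequences were matched by symbol for 6 of the 9 genes in a RefSeq table of GRCm38.p6, which holds 2 promoters for Ccr6. Of these, 4 are shown because they cover the different outcomes: a peak in Scid.adh.2C2 at Ccr4 and Ccr9, a peak in the pro-B line at Cxcr4, and a peak in neither line at Ccr8. Each runs 5′ to 3′ over the 250 bases before the RefSeq start, with CpG dinucleotides in capitals. They lie at chr9:114496545-114496794 on the minus strand for Ccr4, at chr9:123766961-123767210 on the plus strand for Ccr9, at chr1:128592300-128592549 on the minus strand for Cxcr4 and at chr9:120091883-120092132 on the plus strand for Ccr8.
Ccr4: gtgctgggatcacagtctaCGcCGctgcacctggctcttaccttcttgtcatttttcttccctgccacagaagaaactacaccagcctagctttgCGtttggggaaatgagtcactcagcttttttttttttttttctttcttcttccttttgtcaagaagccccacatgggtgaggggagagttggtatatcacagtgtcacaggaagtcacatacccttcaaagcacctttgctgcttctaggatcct
Ccr9: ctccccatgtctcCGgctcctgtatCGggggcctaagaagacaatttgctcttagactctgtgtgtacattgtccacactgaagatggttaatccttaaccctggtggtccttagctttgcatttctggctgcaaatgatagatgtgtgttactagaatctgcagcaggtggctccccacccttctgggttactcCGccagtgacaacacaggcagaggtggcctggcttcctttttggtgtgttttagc
Cxcr4: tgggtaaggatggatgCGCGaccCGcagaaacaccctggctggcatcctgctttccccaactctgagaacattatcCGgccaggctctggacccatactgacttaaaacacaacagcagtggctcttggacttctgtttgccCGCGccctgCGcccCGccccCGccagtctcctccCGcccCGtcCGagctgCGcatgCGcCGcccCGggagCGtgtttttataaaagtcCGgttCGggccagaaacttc
Ccr8: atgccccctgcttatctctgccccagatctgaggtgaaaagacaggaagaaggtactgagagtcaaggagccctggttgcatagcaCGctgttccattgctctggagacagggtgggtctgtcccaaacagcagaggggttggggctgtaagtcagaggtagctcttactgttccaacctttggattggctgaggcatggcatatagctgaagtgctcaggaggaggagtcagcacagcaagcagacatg
The capitals show 19 CpG in the Cxcr4 promoter, 3 in that of Ccr4, 3 in that of Ccr9 and 1 in that of Ccr8. All 250 bases of the Ccr4 promoter lay within a peak of Scid.adh.2C2, as did 40 bases of the Ccr9 promoter, and all 250 bases of the Cxcr4 promoter lay within a peak of the pro-B line.

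The bases around 3 peak summits are shown next, because Ccr7 was the gene with a promoter peak in both lines and S1pr1 the gene with the highest peak. Each sequence covers 201 bases of GRCm38 centred on the summit, in the direction of the gene, on the minus strand, with CpG in capitals, and none overlaps an annotated exon. The Ccr7 summit of Scid.adh.2C2 was at chr11:99155400-99155600, before the gene, that of the pro-B line at chr11:99154602-99154802, inside the gene, and the S1pr1 summit of the pro-B line at chr3:115714102-115714302.
Ccr7 in Scid.adh.2C2: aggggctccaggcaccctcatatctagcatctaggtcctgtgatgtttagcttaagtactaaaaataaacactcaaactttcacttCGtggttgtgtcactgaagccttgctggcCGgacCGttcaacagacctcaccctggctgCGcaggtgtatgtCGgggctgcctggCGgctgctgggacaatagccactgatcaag
Ccr7 in the pro-B line: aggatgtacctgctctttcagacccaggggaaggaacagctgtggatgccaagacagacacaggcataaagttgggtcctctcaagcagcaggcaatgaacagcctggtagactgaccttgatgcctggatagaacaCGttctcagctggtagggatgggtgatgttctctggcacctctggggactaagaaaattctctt
S1pr1 in the pro-B line: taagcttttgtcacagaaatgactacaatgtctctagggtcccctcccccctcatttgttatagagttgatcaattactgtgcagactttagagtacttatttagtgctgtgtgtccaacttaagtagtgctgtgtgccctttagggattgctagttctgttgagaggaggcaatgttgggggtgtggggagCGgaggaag
The Ccr7 summit of Scid.adh.2C2 held 6 CpG, and the Ccr7 and S1pr1 summits of the pro-B line held 1 CpG each. The promoter summits not shown did not follow the line. In the pro-B line they held 9 CpG at Ccr6, 7 at Cxcr4 and 3 at a second Ccr7 peak. In Scid.adh.2C2 they held 5 at Ccr4 and 1 at Ccr9. The median over all summits was 6 CpG among the 15513 peaks of Scid.adh.2C2 and 5 CpG among the 19604 peaks of the pro-B line.

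For each line the authors deposited 1 list of peaks that combines both replicates, so that no value per replicate, spread, read count or depth is known, and no test between the lines was possible. The lists had median peak widths of 1542 bp in Scid.adh.2C2 and 1590.5 bp in the pro-B line, and median fold enrichments over background of 20.3 and 15.4. Because these scales differ, fold enrichments are compared within a list, and the lists are set side by side through percentiles. A gene is called unmarked where the list holds no peak in its window, which is not a measurement of absent H3K4me3. The line labels were checked against marker genes: all 10 T cell progenitor markers had a promoter peak in Scid.adh.2C2 and 3 did in the pro-B line, Cd3d, Lck and Tcf7. All 10 B-cell progenitor markers had one in the pro-B line and 1 did in Scid.adh.2C2, where the peak at Vpreb1 also overlapped the promoter of Top3b. In the pro-B line the highest Vpreb1 peak overlapped that of Top3b too, the Igll1 peak that of Vpreb1 and the Cd79a peak that of Arhgef1. Peaks of some further markers also overlapped promoters of other annotated genes. None of 5 myeloid markers had a promoter peak in either line.

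Promoter peaks were found in Scid.adh.2C2 at 3 of the 9 receptor genes (Ccr4, Ccr7 and Ccr9) and in the pro-B line at 4 (Ccr6, Ccr7, Cxcr4 and S1pr1). Among all protein-coding genes 45.5% were marked in Scid.adh.2C2 and 48.2% in the pro-B line. Ccr7 was the 1 receptor gene marked in both lines, a state shared by 42.2% of protein-coding genes. Ccr4 and Ccr9 were marked in Scid.adh.2C2 only, as were 3.28% of protein-coding genes, and Ccr6, Cxcr4 and S1pr1 in the pro-B line only, as were 5.96%. Ccr8, Cxcr3 and Cxcr5 had no promoter peak in either line. Thus 5 of the 6 marked receptor genes were marked in 1 line, whereas most marked protein-coding genes (9261) were marked in both. Among 10 other chemokine receptors, described below, 0 were marked in both lines, 3 in the pro-B line alone and 1 in Scid.adh.2C2 alone. Of all 21 other receptors, 3 were marked in both lines. The count of 5 also depended on the settings. Ccr4 and Ccr9 were unmarked with the most upstream TSS alone. Ccr9 was marked in both lines with a window of 5000 bp, and Ccr6 was unmarked with 1000 bp. All promoter peaks of the receptor genes had the highest IDR score of 1000, the score by which the authors' pipeline grades agreement between replicates, as did 93.6% of all Scid.adh.2C2 peaks and 93.9% of all pro-B peaks.

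**Figure D1:**
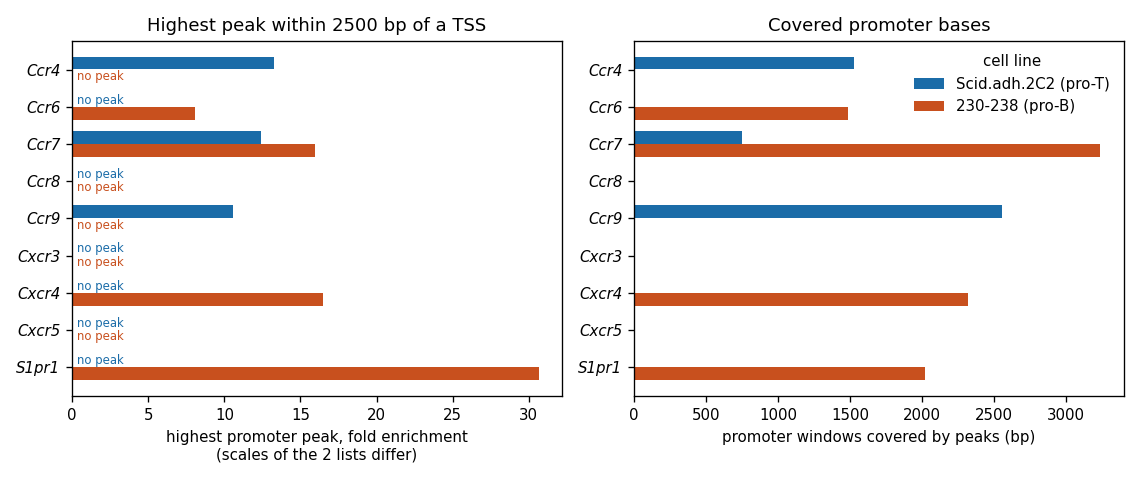
Highest promoter fold enrichment over background (left) and base pairs of the promoter windows covered by peaks (right) for the 9 receptor genes, with 1 bar per line, Scid.adh.2C2 in blue and the pro-B line in orange. The bars reach 13.3 in Scid.adh.2C2, at Ccr4, and 30.6 in the pro-B line, at S1pr1, and only Ccr7 has a bar in both lines.

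Ccr7, the receptor for Ccl19 and Ccl21 that draws cells into lymph nodes and the thymic medulla, lies on chromosome 11 (99144196 to 99155077, minus strand) and has 1 annotated TSS. In Scid.adh.2C2 its promoter peak spanned 753 bp with a fold enrichment of 12.4, and its summit lay 423 bp upstream of the TSS. In the pro-B line the peak at the TSS spanned 3156 bp with a fold enrichment of 15.98, and its summit lay 375 bp downstream of the TSS, in an intron. A second pro-B peak of 4676 bp and 13.4-fold enrichment began 2415 bp inside the gene, and together the 2 peaks, less than 1000 bp apart, formed a stretch of 8163 bp. Peaks covered 753 bp (15.1%) of the promoter window in Scid.adh.2C2 and 3242 bp (64.8%) in the pro-B line. The pro-B peak at the TSS ranked 9336 of its list by fold enrichment and that of Scid.adh.2C2 ranked 10802 of the shorter list, so that the H3K4me3 region in the B-cell line was wider and stood nearer to the middle of its list.

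S1pr1, the receptor that lets lymphocytes exit along the sphingosine 1-phosphate gradient into blood and lymph, lies on chromosome 3 (115710433 to 115715072, minus strand). Its pro-B peak had a fold enrichment of 30.6, a −log10 q of 174 and a width of 2023 bp, and ranked 417 of 19604 peaks. This was the highest promoter peak of the 9 genes in either list by percentile of fold enrichment. The peak ended 45 bp short of the TSS on the gene side, and its summit lay 870 bp downstream, in an intron. The same peak overlapped the promoter window of Gm9889, an annotated noncoding gene on the opposite strand, and a peak list cannot assign it to 1 of the 2 genes. In Scid.adh.2C2 the nearest peak was 14226 bp upstream of the S1pr1 TSS, with a fold enrichment of 10.3, and a further peak of 11.6-fold lay 43351 bp upstream. Neither had an overlapping peak in the pro-B line.

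Cxcr4, the Cxcl12 receptor that keeps progenitors in the bone marrow, lies on chromosome 1 (128588199 to 128592293, minus strand) with 2 TSSs that are 3 bp apart. The pro-B peak spanned 2319 bp from 128590584 to 128592902, held both TSSs and had a fold enrichment of 16.5 and a −log10 q of 125. Its summit lay 156 bp downstream of the TSS, and the peak covered 46.3% of the promoter window. In Scid.adh.2C2 no peak overlapped the window. The nearest Scid.adh.2C2 peaks were at 19629 bp and 21464 bp upstream, with fold enrichments of 8.54 and 10.8, and neither overlapped a pro-B peak. The wider of these, 2462 bp, was a little wider than the pro-B promoter peak of the same gene. Cxcr5, which guides cells to Cxcl13 in B-cell follicles, lies on chromosome 9 (44511787 to 44561877, minus strand) and has 5 TSSs, none of which had a peak within 2500 bp. An intronic peak 10315 bp from a TSS was present in both lines, with fold enrichments of 12.9 in Scid.adh.2C2 and 8.18 in the pro-B line. A pro-B peak of 11.3-fold lay 5537 bp upstream of the most upstream TSS and had no counterpart in Scid.adh.2C2, whereas a second intronic peak of 7.68-fold was found in Scid.adh.2C2 alone.

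Ccr9, the Ccl25 receptor of thymocytes and gut-homing T cells, spans 123678439 to 123784330 on chromosome 9 (plus strand) and has 6 TSSs. Its Scid.adh.2C2 peak spanned 2665 bp from 123767171 to 123769835 and held 3 of the TSSs, while the most upstream TSS, at 123678439, had none. The peak had a fold enrichment of 10.6 and a −log10 q of 35.7, and its summit lay 285 bp downstream of a TSS, in an exon. By fold enrichment it stood at the 25.1 percentile of the list and by width at the 85.5 percentile, a broad and low peak. In the pro-B line the nearest peak had a fold enrichment of 15.1 and lay 3519 bp upstream of the nearest TSS, outside the promoter window, where Scid.adh.2C2 had an overlapping peak of 6.18-fold. That position lies in the window of the annotated gene Gm17020. Scid.adh.2C2 had a run of further intronic peaks upstream of the Ccr9 promoter, with fold enrichments of 5.34, 5.41, 5.64 and 6.58, none of which overlapped a pro-B peak.

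Ccr4, the receptor for Ccl17 and Ccl22 on skin-homing and regulatory T cells, spans 114490316 to 114504916 on chromosome 9 (minus strand) and has 3 TSSs. The Scid.adh.2C2 peak spanned 1532 bp and held 2 of them, with a fold enrichment of 13.3, a −log10 q of 50.9 and a summit 102 bp downstream of the TSS at 114496562. It was the only peak of Scid.adh.2C2 within 50 kb of the gene. The only pro-B peak in that range lay beyond the 3′ end, 7541 bp from the nearest TSS, with a fold enrichment of 10.6. Each line thus had 1 peak near Ccr4, at different places. Ccr8, a receptor for Ccl1 and Ccl8 on type 2 helper and regulatory T cells, lies on chromosome 9 (120092114 to 120094906, plus strand). It had no promoter peak, and the nearest peak, at the promoter of Slc25a38, was 18176 bp away in Scid.adh.2C2 and 18194 bp away in the pro-B line.

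Ccr6, the Ccl20 receptor of B cells and mucosal T cells, spans 8236043 to 8257141 on chromosome 17 (plus strand), with 7 TSSs. Its pro-B peak spanned 1679 bp, held no TSS and began 1016 bp downstream of the TSS at 8236212, with its summit 1798 bp downstream, in an intron. The fold enrichment was 8.09 and the peak ranked 16709 of 19604. A second pro-B peak of 12.1-fold lay 9485 bp upstream of the gene. Scid.adh.2C2 had neither, and its nearest peak, at the promoter of Mpc1, was 37548 bp away. The promoter peak of Ccr6 had the lowest percentile of the receptor genes in its list, and lay inside the gene and not at its start. Cxcr3, the receptor for Cxcl9, Cxcl10 and Cxcl11 on effector T cells, lies on chromosome X (101731535 to 101734269, minus strand). No peak lay within 50 kb of it in either line, and the nearest were 91485 bp away in Scid.adh.2C2 and 90520 bp away in the pro-B line.

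By fold enrichment, the marked receptor genes, S1pr1 apart, stood low among marked promoters. Marked protein-coding genes had median highest fold enrichments of 27.1 (Scid.adh.2C2) and 21.7 (pro-B line). Among the 9980 marked protein-coding genes of Scid.adh.2C2, Ccr4 stood at the 5.82 percentile, Ccr7 at the 4.94 percentile and Ccr9 at the 3.29 percentile. Among the 10570 of the pro-B line, Ccr6 stood at the 1.33 percentile, Ccr7 at the 18.4 percentile, Cxcr4 at the 20.6 percentile and S1pr1 at the 95.3 percentile. The 3 marked genes of Scid.adh.2C2 were therefore close to each other and low, while those of the pro-B line ranged over most of the scale. The same peaks stood higher against all peaks of their list, which include those away from promoters: Ccr4 at the 32.5 percentile, Ccr7 at 30.4 in Scid.adh.2C2 and 52.4 in the pro-B line, Cxcr4 at 54.3, Ccr6 at 14.8 and S1pr1 at 97.9. By width the order differed. Marked protein-coding genes had median widths of 2091 bp (Scid.adh.2C2) and 2278 bp (pro-B line). Ccr9 (2665 bp) and, in the pro-B line, Ccr7 (3156 bp) and Cxcr4 (2319 bp) were wider than their median. Ccr4 (1532 bp), Ccr7 in Scid.adh.2C2 (753 bp), Ccr6 (1679 bp) and S1pr1 (2023 bp) were narrower.

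**Figure D2:**
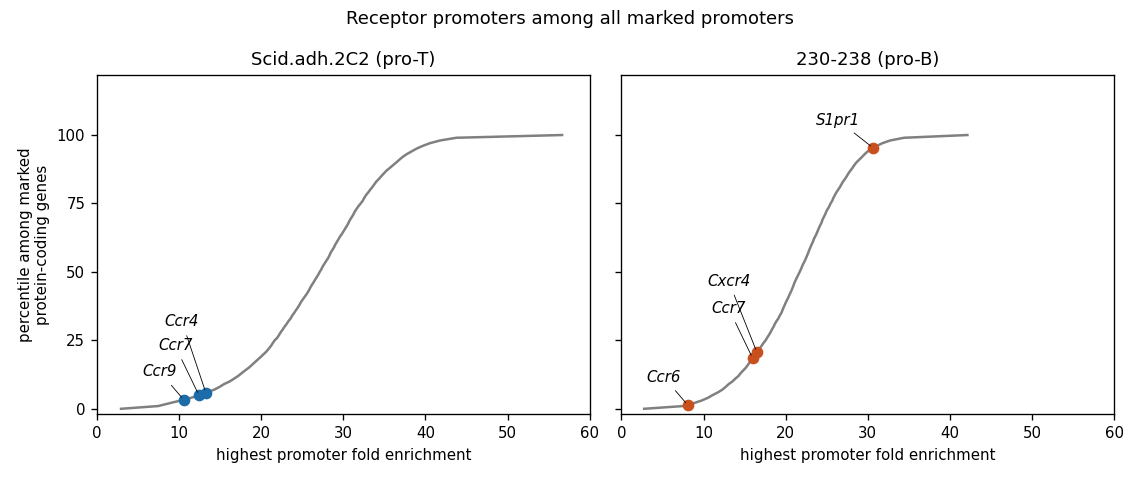
Percentile among marked protein-coding genes (vertical axis) against the highest promoter fold enrichment (horizontal axis) for each line, where the grey line is all marked protein-coding genes and the points are the marked receptor genes. The Scid.adh.2C2 points lie between the 3.29 and 5.82 percentiles, and the pro-B points run from the 1.33 percentile at Ccr6 to the 95.3 percentile at S1pr1.

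The peaks within 50 kb of the 9 genes were then compared between the lines, with peaks called shared where they overlapped by at least 1 bp. Scid.adh.2C2 had 29 such peaks, of which 15 overlapped a pro-B peak, and the pro-B line had 27, of which 13 overlapped a Scid.adh.2C2 peak. Over the whole lists, 74.4% of the Scid.adh.2C2 peaks and 60.7% of the pro-B peaks were shared. Of the unshared peaks, 9 in each line lay in no promoter window of any annotated gene. Ccr7 had 7 peaks nearby in the pro-B line, of which 6 were unshared, and 2 in Scid.adh.2C2, of which 1 was unshared. Ccr9 had the reverse, with 9 peaks in Scid.adh.2C2, of which 7 were unshared, and 2 in the pro-B line, both shared. Apart from the Ccr9 promoter peak, the unshared Scid.adh.2C2 peaks there had low fold enrichments. These ran from 4.05, at the promoter of Lztfl1, to 6.87, at that of Cxcr6. Of peaks of at least 10-fold, Ccr9 had 2 in each line, and Ccr7 had 1 in Scid.adh.2C2 and 5 in the pro-B line. Around S1pr1 none of the 2 peaks of either line was shared, and the same held for the 1 peak of each line around Ccr4. Around Ccr8 all 3 peaks of each line were shared, and all lay at promoters of other genes. Cxcr5 had 7 peaks in each line, 6 shared in Scid.adh.2C2 and 5 in the pro-B line, the highest at Bcl9l with fold enrichments of 39.5 and 39.3.

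**Figure D3:**
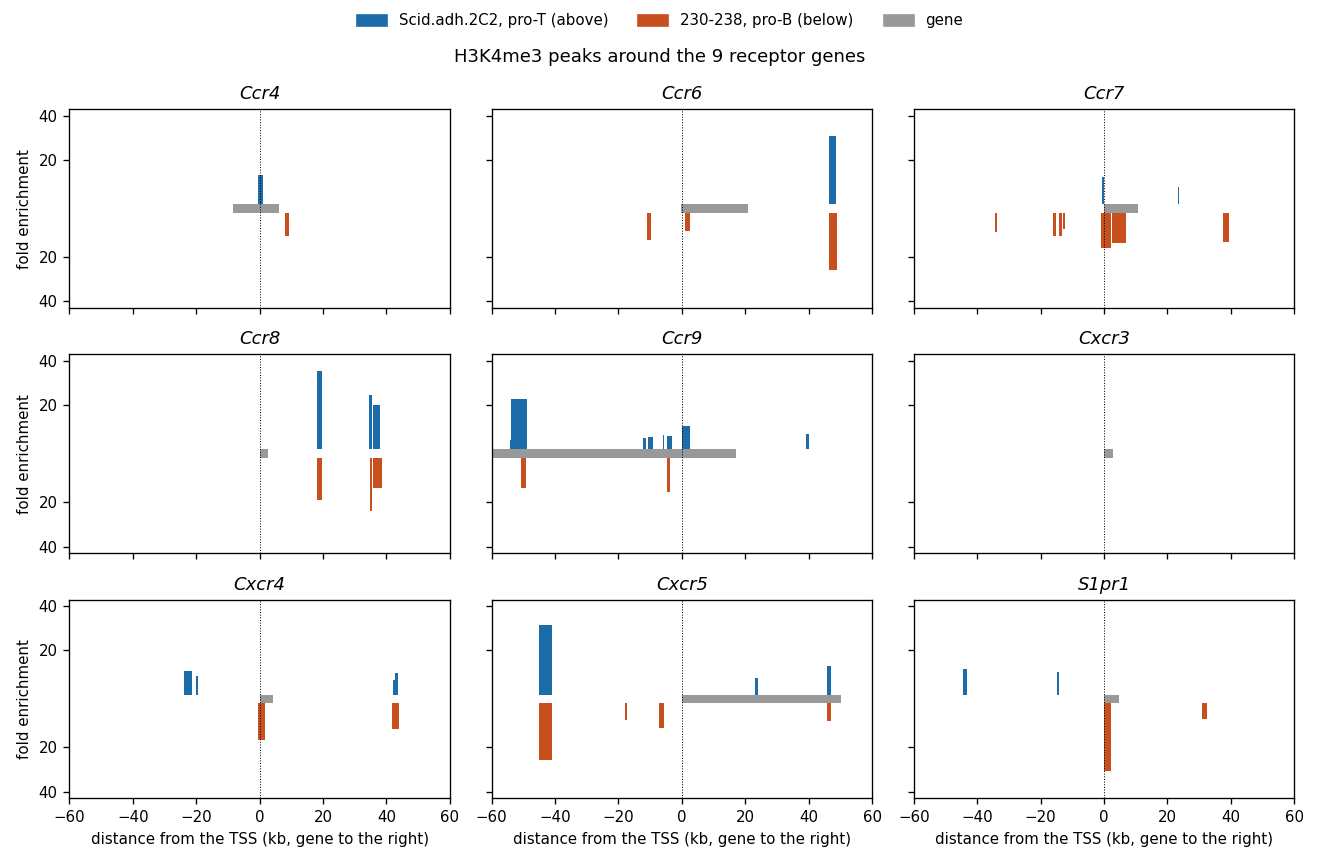
Map of the H3K4me3 peaks around each of the 9 genes, with distance from a TSS in kb on the horizontal axis, each gene drawn to the right as a grey bar, and fold enrichment on the vertical axis, upward for Scid.adh.2C2 (blue) and downward for the pro-B line (orange). The Cxcr5 peaks that lie 66747 bp or more from the TSS, among them those at Bcl9l, fall outside the drawn range. At Ccr7 the orange peaks outnumber the blue ones (7 against 2), at Ccr9 the blue outnumber the orange (9 against 2), and at Cxcr3 no peak is drawn. With peaks of at least 10-fold alone, the counts are 5 against 1 at Ccr7 and 2 against 2 at Ccr9.

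Around the position that defined a promoter peak, the members marked by a peak that held no TSS were Ccr6, whose peak edge lay 1016 bp from a TSS, and S1pr1, at 45 bp, both in the pro-B line and inside the limit of 2500 bp. Of the genes without a promoter peak in a line, those with the nearest peaks outside it were Ccr9 at 3519 bp, Cxcr5 at 5537 bp and Ccr4 at 7541 bp, all in the pro-B line.

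Genes that act with these receptors were described with a list of 73 genes of lymphocyte trafficking. Of the list, 37 genes (50.7%) were marked in Scid.adh.2C2 and 40 (54.8%) in the pro-B line, and 35 were marked in both lines, so that this list stood near the share of all protein-coding genes. Of 21 other receptors 4 were marked in Scid.adh.2C2 and 6 in the pro-B line, and of 13 ligands of the receptors 2 were marked in both lines: Ccl25, the ligand of Ccr9, with fold enrichments of 16.9 in Scid.adh.2C2, at a peak that also overlapped the Elavl1 promoter, and 20.9 in the pro-B line, and Cxcl10, a ligand of Cxcr3, with 6.84 and 10.9. Of 21 genes of receptor signalling and desensitisation, 18 were marked in both lines and 2 in the pro-B line only, and Gng2 in neither.

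Among the other chemokine receptors, Cxcr6 had a promoter peak of 6.87-fold in Scid.adh.2C2 and none in the pro-B line. Ccr1, Ccr2 and Ccr10 were marked in the pro-B line only, with 6.62, 6.90 and 27.5, and the Ccr10 peak also overlapped the promoters of Cntnap1 and Plekhh3. Among the further sphingosine 1-phosphate receptors, S1pr2, which opposes migration, had fold enrichments of 32.7 in Scid.adh.2C2 and 21.2 in the pro-B line, and S1pr4 had 26.7 and 27.4, from a peak that it shared with Ncln. Among all peaks of each list, S1pr2 stood at the 87.7 and 73.2 percentiles and S1pr4 at the 70.2 and 93.2 percentiles. S1pr3 and S1pr5 had no promoter peak. Of 5 atypical receptors 1 was marked, Ccrl2, in both lines, with 13.5 and 23.3. S1pr1 was thus marked in the pro-B line only, while 2 of its relatives were marked in both lines.

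The 3 genes listed as regulators of S1pr1 were marked in both lines. Klf2, a transcription factor that activates S1pr1, had fold enrichments of 15.3 in Scid.adh.2C2 and 20.1 in the pro-B line, Foxo1 had 28.9 and 25.5, and Cd69, whose product removes S1pr1 from the cell surface, had 8.86 and 21.03. Plpp3, which degrades extracellular sphingosine 1-phosphate, had a peak of 31.6-fold in Scid.adh.2C2 and none in the pro-B line. Sphk2, which makes sphingosine 1-phosphate, had 31.8 and 28.4 at peaks that also overlapped the promoters of Fam83e and Rpl18, and Sgpl1, the lyase that breaks it down, had 18.98 and 19.7. Among the signalling genes, Coro1a, an actin regulator, had 36.7 and 30.5, Rhoh had 36.1 and 29.6, Rac1 had 33.5 and 26.5, and Gnai2, the inhibitory G protein subunit that the receptors use, had 28.7 and 29.2. Gnai2 stood at the 76.3 percentile of all Scid.adh.2C2 peaks and the 96.4 percentile of all pro-B peaks. Arrb1, a beta-arrestin that ends receptor signalling, and Rgs1, which dampens G protein signalling, were marked in the pro-B line only, with 20.0 and 23.7.

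Adhesion molecules of homing had the same state in both lines, with 7 of 10 marked. The integrin subunit genes Itga4, Itgb1, Itgb2 and Itga6 had fold enrichments of 35.1, 32.3, 30.6 and 28.7 in Scid.adh.2C2 and of 22.3, 21.7, 13.8 and 22.5 in the pro-B line. Itgae, an integrin subunit of cells that stay in epithelia, and Cd44, a receptor for hyaluronan, had no promoter peak in either line. The median fold enrichment of marked genes was 12.4 for the receptors described here, 28.8 for signalling genes and 28.7 for adhesion molecules in Scid.adh.2C2. In the pro-B line these medians were 16.2, 22.8 and 17.9. The other chemokine receptors had 6.87 in Scid.adh.2C2 (1 marked gene) and 6.90 in the pro-B line (3 marked genes), and the ligands had 11.9 and 15.9. The atypical receptors had 13.5 and 23.3 (1 marked gene), and the other lipid and oxysterol receptors had 29.7 and 24.3.

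**Figure D4:**
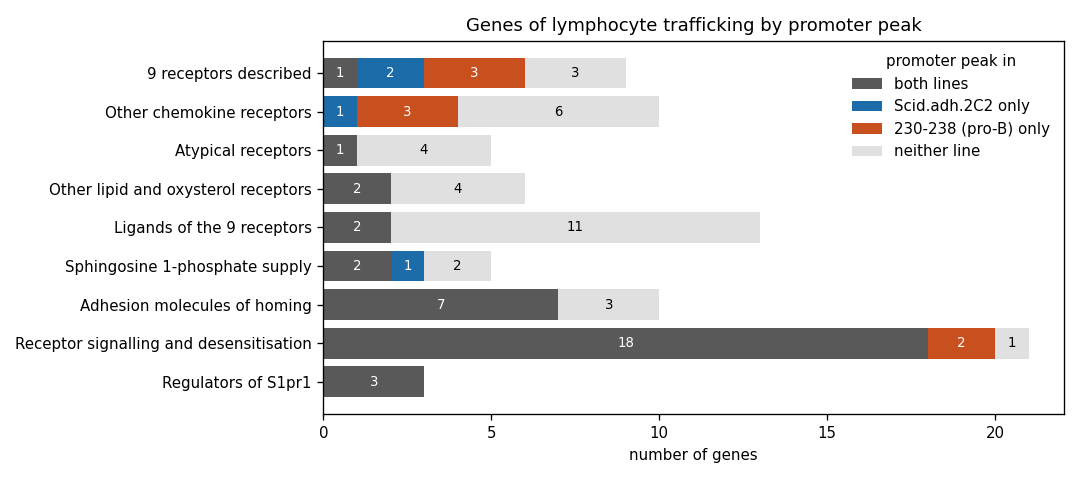
Number of genes in each group of the trafficking list (horizontal axis) by promoter state, with dark grey for a peak in both lines, blue for Scid.adh.2C2 only, orange for the pro-B line only and light grey for neither. The groups of other receptors and of ligands are mostly light grey, whereas 18 of 21 signalling genes and 7 of 10 adhesion genes are dark grey.

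The CpG content of the promoters was a feature that the choice of genes had not used. Over 32817 RefSeq promoters the median was 6 CpG in 250 bases, and it was 17 in promoters with a Scid.adh.2C2 peak within 2500 bp and 3 in those without. In the pro-B line the medians were 16 and 3. With 16 or more CpG, as Cxcr4 has, peaks were present at 70.8% of promoters in Scid.adh.2C2 and 73.6% in the pro-B line. With 1 to 3 CpG, as Ccr4, Ccr8, Ccr9, Cxcr3 and the upstream promoter of Ccr6 have, the values were 7.64% and 9.54%. The upstream and downstream Ccr6 promoters had 1 and 7 CpG, and none of their 250 bases lay within a peak. The pro-B peak of Ccr6 lay within 2500 bp of the upstream start but not of the downstream one. Thus Cxcr4 had a CpG-rich promoter of the class that was mostly marked but had a peak in the pro-B line only. Ccr4 and Ccr9 had CpG-poor promoters of the class that was mostly unmarked but had a peak in Scid.adh.2C2. The upstream Ccr6 promoter, of the same CpG-poor class, had a peak within 2500 bp in the pro-B line.

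**Figure D5:**
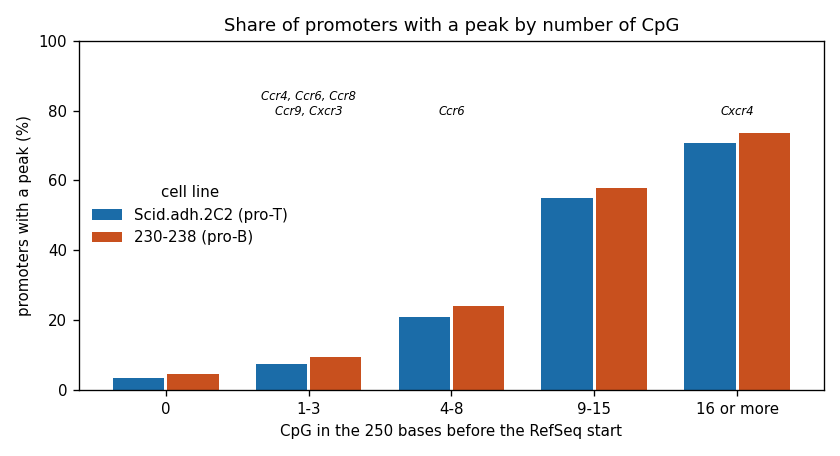
Share of RefSeq promoters with an H3K4me3 peak within 2500 bp (vertical axis, percent) by the number of CpG in the 250 bases before the start (horizontal axis), in Scid.adh.2C2 (blue) and the pro-B line (orange), with the receptor genes named above their class. The share rises from 3.64% and 4.76% without CpG to 70.8% and 73.6% with 16 or more, the class of Cxcr4.

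Letters of motifs named for lymphoid transcription factors were counted on both strands of the same 250 bases, with overlapping matches counted separately. The ETS letters GGAA occurred in every receptor promoter of the table, 4 times in Ccr4 and 1 time in Ccr9, and in 93.4% of all promoters. The TCF letters CTTTGA were found in the promoter of Ccr4 and in both of Ccr6, and in 13.8% of all. The RUNX letters TGTGGT were found in Cxcr3 and in 14.04% of all, and the GATA letters AGATAA in Ccr8 and the downstream promoter of Ccr6 and in 9.99% of all. The KLF letters CCACCC were found in Ccr8 and Ccr9 and in 28.1% of all, and the E-box letters CANNTG in Ccr4, Ccr9, Cxcr3 and the downstream promoter of Ccr6 and in 66.2% of all. The EBF letters CCCNNGGG were in none of them and in 11.8% of all promoters.

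The gene of the trafficking list whose pattern was most like each marked receptor gene was taken as the one with the smallest summed difference in covered promoter bases over the 2 lines, among 73 genes. S1pr1 was closest to Arrb1, with 2023 bp against 2015 bp covered in the pro-B line and no peak in Scid.adh.2C2. Ccr9 was closest to Plpp3, with 2559 bp against 2518 bp in Scid.adh.2C2. Cxcr4 and Ccr6 were also closest to Arrb1, with summed differences of 304 bp and 530 bp. Ccr4 was closest to Cxcr6 and Ccr7 to S1pr4, with differences of 715 bp and 817 bp. Fold enrichment was not part of this measure, and it differed within these pairs. In Scid.adh.2C2 it was 10.6 at Ccr9 and 31.6 at Plpp3. In the pro-B line it was 20.0 at Arrb1, and 30.6, 16.5 and 8.09 at S1pr1, Cxcr4 and Ccr6.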

How the data were processed

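H3K4me3 ChIP-seq of 2 libraries and 1 input per line was analysed from the deposited peak lists. Before deposit, reads were trimmed (Trim Galore 0.6.7) and mapped to mm10, which is GRCm38 (Bowtie2 2.4.4), and the authors called narrow peaks with MACS2 (2.2.7.1) at a q-value of 0.05 and kept the peaks reproducible between replicates by IDR. Each deposited peak carries a fold enrichment ratio, a −log10 q-value and an IDR score, computed by the authors on both replicates combined and used here as given. A fold thus depends on the input and on the depth of the libraries, which is unknown. No counting intervals could be given.

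TSSs were taken from GENCODE M21. A promoter was marked when a peak overlapped the 2500 bp either side of a TSS by at least 1 bp. Percentiles give the share of peaks or genes at or below a value. Sequences came from RefSeq (GRCm38.p6). Nothing was tested between lines. The functions were tested on simulated peaks. The alternatives were other windows, TSS choices, peak filters and overlaps. The 9 genes and all lists were chosen with earlier results of these data known. All 9 genes are described. Of the other trafficking genes, the text names by rule those marked in 1 line only and up to 4 per group with the highest fold. Gnai2, Gng2, S1pr3, S1pr5, Itgae and Cd44 were named after their values were seen. The input libraries entered through the authors' peak calling only. Python 3.11.15, numpy 2.4.6, pandas 2.3.3 and matplotlib 3.10.9 were used.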

Additional observations from a re-analysis of the deposited data

How the results depend on the processing

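With a window of 5000 bp, Ccr9 gained a pro-B peak of 15.1-fold. Thus 2 of the receptor genes were marked in both lines (Ccr7 and Ccr9) and 1 in Scid.adh.2C2 only (Ccr4). Among all protein-coding genes at this window, 43.8% were marked in both lines and 3.49% in Scid.adh.2C2 only. With the most upstream TSS of each gene alone, 1 gene (Ccr7) was marked in Scid.adh.2C2 and 0 in Scid.adh.2C2 only. The peaks of Ccr4 and Ccr9 lie at TSSs further downstream. With that choice, 42.8% of protein-coding genes were marked in Scid.adh.2C2 and 3.06% in Scid.adh.2C2 only. Ccr6 lost its peak with a window of 1000 bp and with peaks of at least 10-fold enrichment. With both peaks of at least 10-fold, 9 of 15 Scid.adh.2C2 peaks near the receptor genes were shared (15 of 29 without this filter). In the pro-B line 9 of 20 were shared (13 of 27 without this filter). Over the whole lists with the filter, 81.9% of the Scid.adh.2C2 peaks and 70.8% of the pro-B peaks were shared. Peaks with an IDR score of 1000, lists of equal length, summits inside the window and TSSs of protein-coding transcripts left the marked receptor genes unchanged. Ranked by −log10 q in place of fold enrichment, the pro-B peaks stood at the 20.9 (Ccr6), 63.1 (Ccr7), 74.5 (Cxcr4) and 96.9 (S1pr1) percentiles of their list. Those of Scid.adh.2C2 stood at the 34.6 (Ccr4), 30.1 (Ccr7) and 27.3 (Ccr9) percentiles. Of 56 alternatives for the 7 marked pairs of gene and line, 4 removed the peak, and of 88 alternatives for the 11 unmarked pairs, 1 added a peak.

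No paired analysis was possible because each list combines both replicates of a line, so that the replicate numbers belong to no value. For the same reason leaving out a replicate was not possible. The depth of the libraries is unknown, so that a promoter without a peak in a list cannot be told apart from one with H3K4me3 below the detection limit.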
